A study of Mus musculus with 6 samples.

Results

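Tropomyosins are coiled-coil proteins that lie end to end along actin filaments. The 7 genes described here are the mouse tropomyosin genes Tpm1, Tpm2, Tpm3 and Tpm4 and 3 partners of the tropomyosin-coated filament: the caldesmon gene Cald1, the tropomodulin gene Tmod3 and the leiomodin gene Lmod1. They were taken by symbol, all 7 were present among the 16423 genes of the deposited table, and all 7 entered the test, which covered the 10341 genes averaging 1 FPKM or more. FPKM is the number of fragments on a gene, scaled by the gene's length in kilobases and by the library's total. The groups were siYBX1, transfected with siRNAs against Ybx1 and labelled as YBX1 knockdown, and siNC, transfected with a control siRNA and labelled WT, with 3 libraries each. Both groups were C3H10T1/2 cells, a mouse mesenchymal stem cell line, and both had been made into what the submitters call brown adipocytes, with 3-isobutyl-1-methylxanthine, dexamethasone, indomethacin, insulin, triiodothyronine and rosiglitazone, and then with the last 3 alone. They were transfected on day 4 and RNA was taken 48 h later. The siRNA sequences were not used here. Whether replicates came from separate cultures is not stated, so each p-value is about library-to-library spread alone, part or all of which may be technical.

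By its position along the filament a tropomyosin decides which other proteins can bind there: it is known to gate myosin, to protect filaments from cofilin and to hinder branching by the Arp2/3 complex. In non-muscle cells different tropomyosins mark different filament populations, such as stress fibres. Caldesmon binds along actin and tropomyosin and inhibits the myosin ATPase. Tropomodulins cap the slow-growing, pointed end of the filament with the help of tropomyosin, and leiomodins are related proteins that nucleate filaments. When mesenchymal cells become adipocytes they are known to lose their stress fibres.

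The 4 tropomyosin genes are close paralogs, and the stretch shown next is printed to show how similar, and how far from identical, their messages are. It holds the 60 coding bases with the most positions in common, from the GENCODE vM21 transcripts, which are annotated on GRCm38. Lower case marks the 47 bases shared by all 4 genes, and capitals mark the 13 positions at which at least 1 gene differs. The stretch covers coding bases 322 to 381 of the 284-codon forms of Tpm1 and Tpm2 and bases 214 to 273 of the 248-codon forms of Tpm3 and Tpm4, counted from the first base of the start codon.
Tpm1: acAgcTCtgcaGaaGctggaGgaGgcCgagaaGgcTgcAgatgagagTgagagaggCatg
Tpm2: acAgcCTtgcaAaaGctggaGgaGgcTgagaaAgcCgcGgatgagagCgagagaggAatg
Tpm3: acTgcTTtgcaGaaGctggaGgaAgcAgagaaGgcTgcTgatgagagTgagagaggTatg
Tpm4: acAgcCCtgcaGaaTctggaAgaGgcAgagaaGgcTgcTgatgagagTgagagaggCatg
Over the last 204 codons and the stop codon of these forms, identity between pairs of these genes was 69.6% for Tpm1 and Tpm2 at the lowest and 77.6% for Tpm1 and Tpm4 at the highest, without gaps. The longest run of identical bases was 32, between Tpm3 and Tpm4. No 50-base window of any transcript of 1 tropomyosin gene occurred in another tropomyosin gene. Windows were shared with other loci: 23.2% of those of Tpm3, chiefly with the processed copy Tpm3-rs7, and 15.7% of those of Tpm4, chiefly with the pseudogene Gm7809. Tpm4 exons also overlap Gm26586 on the opposite strand. How the submitters' counting treated shared reads and strand is not given in the sources used here, so the Tpm3 and Tpm4 values carry that uncertainty. Tpm1, Tpm2, Cald1 and Lmod1 shared no window with any other gene of that annotation, and Tmod3 shared 0.943%.

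Library totals recovered from the FPKM values were 31957411 to 35410308 reads in siYBX1 and 34207232 to 35299269 reads in siNC, and the members had between 2092 and 49427 reads in a library. Ybx1 itself, the gene of a nucleic-acid-binding protein with a cold-shock domain, had 59.3, 67.9 and 61.3 FPKM in siYBX1 against 135.1, 134.2 and 129.6 FPKM in siNC, so 47.3% of the control level was left (adjusted p = 3.98e-06, limma). Among the 10341 genes tested, 987 (9.54%) were higher and 1145 (11.1%) lower in siYBX1, 20.6% in all, at an adjusted p below 0.05 (limma on log2(FPKM + 1), Benjamini-Hochberg). After rescaling each library to TPM these counts were 662 higher and 1573 lower. Library siNC replicate 1 lay farther from the other controls, with a root mean square difference of 0.157 and 0.175 on the log2(FPKM + 1) scale, than these lay from each other (0.11). Of 9 adipocyte markers 7 were tested and none passed, with a median of 0.026 on the log2 scale. Plin1, lower in siYBX1, had the lowest adjusted p (0.0537, limma). The summed level of the list was 2677 to 3161 FPKM in siYBX1 and 2148 to 3004 FPKM in siNC, most of it from Fabp4 and Adipoq. Cebpa and Retn lay below 1 FPKM. Of 6 brown adipocyte markers Cidea and Cox8b were tested and did not pass, Ppargc1a and Dio2 lay below 1 FPKM, and Prdm16 and Elovl3 were at or near 0 in both groups. In bulk RNA, a different number of cells of a kind and a different amount of RNA per cell cannot be told apart.

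Of the 7 members 5 rose in siYBX1 and none fell. The 5 were Lmod1, Tpm1, Tpm4, Tpm2 and Cald1, with log2 fold changes between 0.42 and 0.94. Tpm3 and Tmod3 did not pass the threshold. Among all genes tested 9.54% were called higher. The members had a median of 0.48 on the log2 scale, against -0.011 for all genes tested. All 3 siYBX1 libraries lay above all 3 siNC libraries for 6 members, Tmod3 being the exception, and the same held for 19.0% of all genes tested. With 3 against 3 libraries an exact two-sided permutation test cannot give a p below 0.1, and it gave 0.1 for each of these 6 genes.

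**Figure D1:**
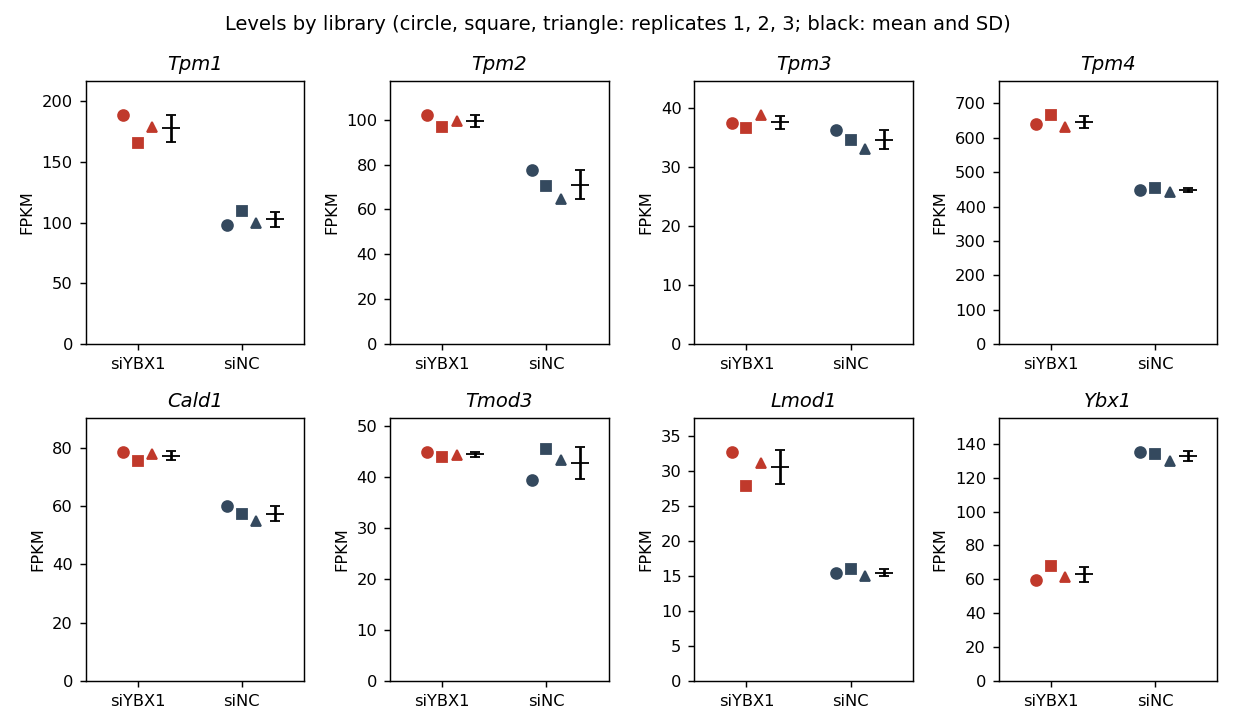
FPKM of each member and of Ybx1 in every library, siYBX1 left and siNC right in each panel, with a separate axis from 0 for each gene. Symbols are libraries and the black bar is the mean with its SD. For Tpm1, Tpm2, Tpm4, Cald1 and Lmod1 the siYBX1 libraries form a group above the siNC libraries, the Tpm3 groups lie close together, and the Tmod3 groups overlap.

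Tpm4 was the most abundant of the 7. It encodes a short, non-muscle tropomyosin found on stress fibres and other actin structures. It had 639, 665 and 632 FPKM in siYBX1 against 449, 454 and 443 FPKM in siNC. The spread within each group was small beside the gap between the groups. Tpm4 averaged 645 ± 17.3 FPKM in siYBX1 and 449 ± 5.82 FPKM in siNC (SD, n = 3 each), a 1.44-fold ratio of means. On the log2 scale the fold change was 0.52 (95% confidence interval 0.40 to 0.65, SE 0.06), with an adjusted p of 0.000304 (limma). By mean level it ranked 103 among all genes tested.

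Tpm1 had the largest log2 fold change among the tropomyosins. It gives rise to many isoforms, long ones typical of muscle and stress fibres and short ones, through alternative promoters and exons. It had 188, 166 and 178 FPKM in siYBX1 against 98.15, 109.6 and 99.85 FPKM in siNC. Replicate 2 was the lowest siYBX1 library and the highest siNC library, and the groups were still far apart. The means were 177 ± 11.2 FPKM in siYBX1 and 102.5 ± 6.16 FPKM in siNC (SD, n = 3 each), a 1.73-fold ratio. Its log2 fold change of 0.78 (interval 0.64 to 0.93, SE 0.06, adjusted p = 5.45e-05, limma) ranked 21 among the 987 genes called higher. GENCODE vM21 lists 21 transcripts of Tpm1, 16 of them protein coding, and the deposited value is 1 number per gene, so it does not show which isoforms changed.

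Tpm2, which encodes beta-tropomyosin of muscle and a long isoform of non-muscle cells, had 102, 96.5 and 99.2 FPKM in siYBX1 against 77.7, 70.5 and 64.7 FPKM in siNC. The siNC libraries were the more scattered, with a coefficient of variation of 9.19% against 2.72% in siYBX1. Tpm2 averaged 99.2 ± 2.69 FPKM in siYBX1 and 71.0 ± 6.53 FPKM in siNC (SD, n = 3 each), a 1.40-fold ratio. The log2 fold change came to 0.48 (interval 0.33 to 0.63, SE 0.07), with an adjusted p of 0.00107 (limma). For each 100 FPKM of Tpm1 there were 54.2, 58.3 and 55.6 FPKM of Tpm2 in siYBX1 against 79.2, 64.4 and 64.8 in siNC, so Tpm2 was lower relative to Tpm1 in every siYBX1 library.

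Tpm3 did not pass. It encodes the slow skeletal muscle tropomyosin and, through another promoter, short isoforms that nearly all cells make. It had 37.4, 36.5 and 38.7 FPKM in siYBX1 against 36.25, 34.6 and 33.1 FPKM in siNC, so that the lowest siYBX1 library lay just above the highest siNC library. The means were 37.6 ± 1.11 FPKM in siYBX1 and 34.6 ± 1.58 FPKM in siNC (SD, n = 3 each). The log2 fold change was 0.11 with an interval from -0.004 to 0.23, and the adjusted p of 0.151 (limma) missed the threshold. On the log2(FPKM + 1) scale that interval allows ratios from 0.997 to 1.18. After a correction for gene length, chosen after seeing the data, the value was 0.17 and passed (adjusted p = 0.0332, limma).

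**Figure D2:**
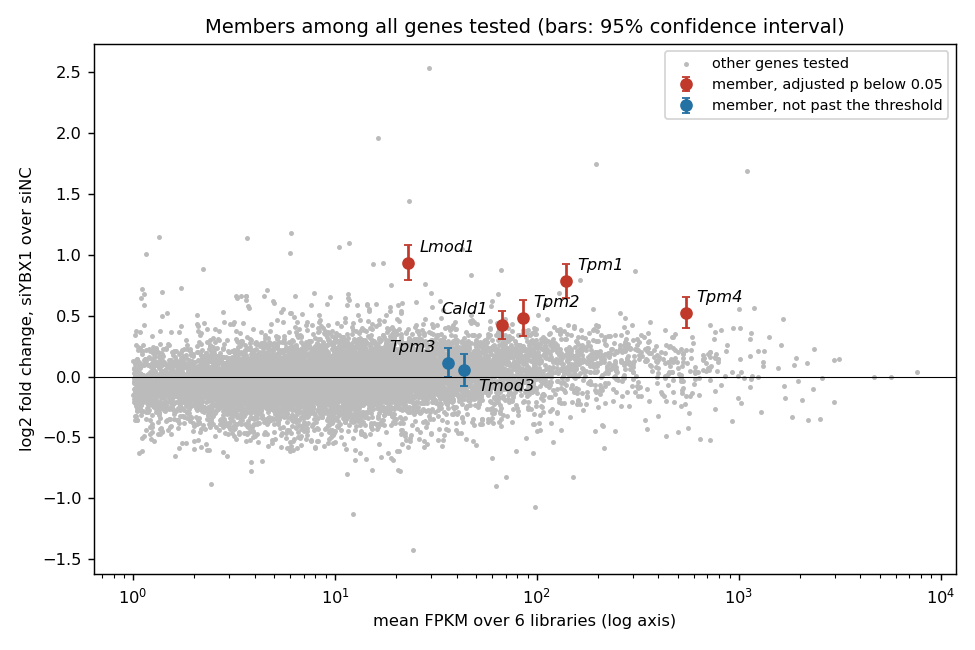
Log2 fold change of siYBX1 over siNC, on the log2(FPKM + 1) scale, against the mean FPKM over 6 libraries on a log axis, for all 10341 genes tested, with the members labelled and their 95% confidence intervals drawn. Lmod1 and Tpm1 lie above nearly all other genes, though some genes of similar level lie well above them. Tpm4, Tpm2 and Cald1 lie below these 2 members, and Tpm3 and Tmod3 lie near 0.

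The 4 genes were also read as 1 tropomyosin pool, larger in siYBX1, in which Tpm1 held a larger and Tpm3 a smaller share. The summed FPKM of the 4 genes was 966, 964 and 949 in siYBX1 against 661, 669 and 640 in siNC, a 1.46-fold ratio of means. Tpm4 made up 67.3 ± 1.53% of it in siYBX1 and 68.3 ± 0.704% in siNC (SD, n = 3 each), and the groups overlapped. Tpm1 made up 18.5 ± 1.17% in siYBX1 and 15.6 ± 0.768% in siNC, without overlap, a difference of 2.88 percentage points (exact two-sided permutation p = 0.1, n = 3 each). Tpm3 took a smaller share in siYBX1, 3.92 ± 0.151% against 5.27 ± 0.18% in siNC, again without overlap (exact two-sided permutation p = 0.1, n = 3 each). Tpm2 made up 10.3 ± 0.285% in siYBX1 and 10.8 ± 0.854% in siNC. Its difference of -0.456 percentage points came out at 0.0198 without siNC replicate 1, and the groups overlapped.

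Shares of this kind depend on the gene lengths behind the FPKM values. The lengths that turned the values into whole reads were 2099 bases for Tpm4, 2545 for Tpm2, 5285 for Tpm1 and 6388 for Tpm3. Counted in reads, Tpm4 held 48.7% of the pool in siYBX1 and 49.97% in siNC, and Tpm1 33.65% in siYBX1 and 28.7% in siNC. Tpm2 held 9.07% in siYBX1 and 9.57% in siNC, and Tpm3 8.62% in siYBX1 and 11.7% in siNC. The direction of each difference was the same in both units. For Tpm1 and Tpm3 it could not have differed, because reads are FPKM multiplied by a fixed length per gene and the library's total. Among the tropomyosin genes Tpm1 had the largest ratio of means (1.73) and Tpm3 the smallest (1.08), so their directions hold at any lengths. For Tpm1 and Tpm3 the reads are therefore no separate check on direction. Within a library, Tpm1 had 5.03, 4.54 and 4.60 FPKM for each FPKM of Tpm3 in siYBX1, against 2.71, 3.17 and 3.02 in siNC. Against Tpm4 the difference was smaller: Tpm1 had 29.4, 24.9 and 28.2 FPKM per 100 FPKM of Tpm4 in siYBX1 and 21.8, 24.1 and 22.6 in siNC, where replicate 2 of both groups nearly met.

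**Figure D3:**
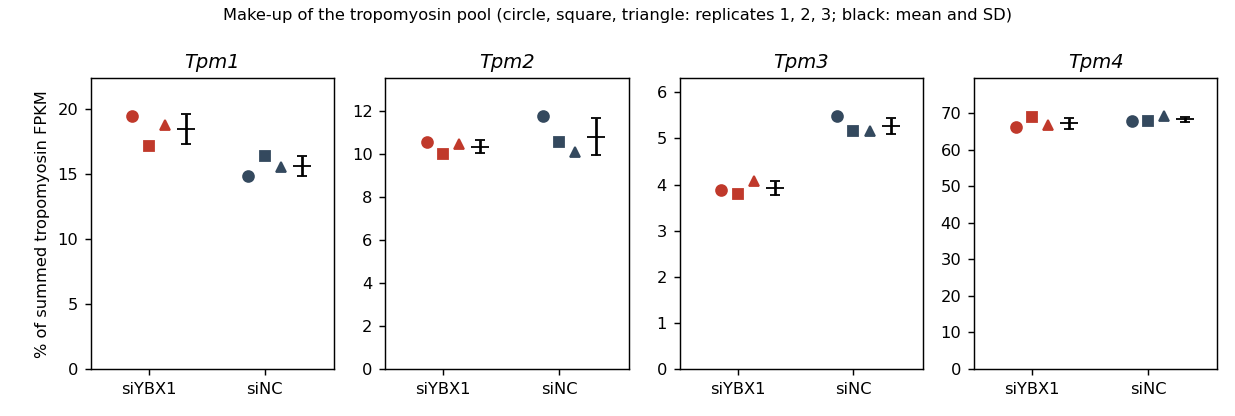
Share of each tropomyosin gene in the summed Tpm1 to Tpm4 FPKM of a library, in percent, siYBX1 left and siNC right in each panel, with an axis from 0 for each gene. Symbols are libraries and the black bar is the mean with its SD. The Tpm1 shares of siYBX1 lie above and the Tpm3 shares below those of siNC, while the Tpm2 and Tpm4 shares overlap between groups.

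Cald1 encodes caldesmon, in a short form in non-muscle cells and a long form in smooth muscle. It had 78.5, 75.4 and 77.9 FPKM in siYBX1 against 60.1, 57.3 and 54.9 FPKM in siNC. All siYBX1 libraries lay close together and well above the controls. The means were 77.3 ± 1.64 FPKM in siYBX1 and 57.4 ± 2.59 FPKM in siNC (SD, n = 3 each), a 1.35-fold ratio, with a log2 fold change of 0.42 (interval 0.31 to 0.54, SE 0.05, adjusted p = 0.000617, limma). Relative to the tropomyosin pool Cald1 was lower in siYBX1, at 8.06 ± 0.202 FPKM per 100 tropomyosin FPKM against 8.74 ± 0.298 in siNC, and the groups did not overlap (exact two-sided permutation p = 0.1, n = 3 each).

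Of the tropomodulin family, Lmod1 rose and Tmod3 did not pass. Lmod1, a leiomodin best known from smooth muscle, had 32.7, 27.95 and 31.2 FPKM in siYBX1 against 15.4, 16.1 and 15.0 FPKM in siNC. The lowest siYBX1 library was replicate 2, as it was for every other member except Tpm4. Lmod1 averaged 30.6 ± 2.44 FPKM in siYBX1 and 15.5 ± 0.524 FPKM in siNC (SD, n = 3 each), a 1.97-fold ratio, the highest of the 7 genes. Its log2 fold change of 0.94 (interval 0.79 to 1.08, SE 0.06, adjusted p = 1.55e-05, limma) ranked 13 among the 987 genes called higher.

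Tmod3, the tropomodulin that most cells make, had 44.9, 44.0 and 44.4 FPKM in siYBX1 against 39.35, 45.5 and 43.4 FPKM in siNC. The siYBX1 values lay within the range of the controls, among which replicate 1 was the lowest. Its adjusted p was 0.524 (limma) at a log2 fold change of 0.06, whose interval of -0.07 to 0.19 allows ratios from 0.950 to 1.14 on the log2(FPKM + 1) scale. Without siNC replicate 1 it was 0.00. Per 100 FPKM of Tmod3 there were 72.9, 63.6 and 70.2 FPKM of Lmod1 in siYBX1 and 39.2, 35.3 and 34.7 in siNC. Tmod3 itself stood at 4.63 ± 0.0614 FPKM per 100 tropomyosin FPKM in siYBX1 and 6.51 ± 0.483 in siNC (SD, n = 3 each), without overlap. The other family members listed in the table, Tmod1, Tmod2 and Tmod4, were below 0.5 FPKM on average in both groups and were not tested. Lmod2 and Lmod3 were not among the genes listed there.

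By level per length the order was Tpm4, Tpm1, Tpm2, Cald1, Tmod3, Tpm3 and Lmod1 in both groups. The order depends on the length behind each value. Recovered lengths were 3926 bases for Tmod3 and 7919 for Cald1, against 11151 and 12041 bases of exon in GENCODE vM21. Those of the other members lay nearer to their annotated exons. No neighbours in this order had overlapping ranges within a group, although Tpm3 and Lmod1 came nearer to each other in siYBX1 (36.5 to 38.7 and 27.95 to 32.7 FPKM) than in siNC (33.1 to 36.25 and 15.0 to 16.1 FPKM). As profiles over the 6 libraries, centred on the siNC mean, Tpm2 and Cald1 were the most alike, with a root mean square difference of 0.0571 on the log2 scale, followed by Tpm2 with Tpm4 (0.0868) and Tpm4 with Cald1 (0.087). Tmod3 and Lmod1 were the least alike (0.626). Profiles centred in this way keep the difference between the groups, so this measure mainly compares log2 fold changes.

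By the same measure, over 6 libraries and among 7329 genes averaging 5 FPKM or more, the nearest genes to Tpm1 were Pfn2 (0.055), which encodes a profilin, Csrp1 (0.0773), a LIM-domain protein, and Dstn (0.0812), the actin-depolymerising factor destrin. Those nearest to Tpm4 were Cnn2 (0.0253), Wdr1 (0.0276) and Chfr (0.0341), a ubiquitin ligase gene. Cnn2, a calponin, had 304 ± 6.03 FPKM in siYBX1 and 211 ± 6.32 FPKM in siNC (SD, n = 3 each). Wdr1, which encodes the cofilin cofactor AIP1, had 119 ± 1.16 FPKM in siYBX1 and 83.5 ± 1.19 FPKM in siNC (SD, n = 3 each). Prepl (0.0495), a prolyl endopeptidase-like gene, Flna (0.0514) and Irak2 (0.0557), a kinase gene of interleukin-1 signalling, were nearest to Tpm2. Flna, which encodes the actin crosslinker filamin A, had 316 ± 12.3 FPKM in siYBX1 and 227 ± 17.2 FPKM in siNC (SD, n = 3 each). Irak2 (0.0155), Pdlim5 (0.0207) and Prepl (0.0263) were nearest to Cald1, where Pdlim5 encodes a PDZ-LIM protein. Lmod1 had Apol10b (0.0804), Dstn (0.0918) and Tpm1 (0.111) nearest to it.

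The promoter windows of Tpm1 and Lmod1, the 2 largest rises, of Cald1, and of Tpm4, the most abundant member, are printed to show which sequence motifs they hold. Each runs 5′ to 3′ from 250 bases before a RefSeq start site to 50 bases after it, on GRCm38.p6, while the submitters' processing notes name GRCm39. Tpm1 lies at chr9:67049164-67049463 on the minus strand. Lmod1 lies at chr1:135324563-135324862, Cald1 at chr6:34598254-34598553 and Tpm4 at chr8:72135038-72135337, all on the plus strand. Capitals mark matches on either strand to the CArG box, the site of serum response factor, with at most 1 mismatch, to CATTCC, the site of TEAD factors, and to CCAAT, the core of the Y-box for which YBX1 is named. No 2 matches overlap.
Tpm1: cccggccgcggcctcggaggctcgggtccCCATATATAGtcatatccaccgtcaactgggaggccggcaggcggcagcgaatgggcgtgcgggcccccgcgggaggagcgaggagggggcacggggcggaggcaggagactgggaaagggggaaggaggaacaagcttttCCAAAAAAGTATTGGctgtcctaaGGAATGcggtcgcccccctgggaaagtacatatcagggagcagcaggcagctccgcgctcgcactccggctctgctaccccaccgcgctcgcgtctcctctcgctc
Lmod1: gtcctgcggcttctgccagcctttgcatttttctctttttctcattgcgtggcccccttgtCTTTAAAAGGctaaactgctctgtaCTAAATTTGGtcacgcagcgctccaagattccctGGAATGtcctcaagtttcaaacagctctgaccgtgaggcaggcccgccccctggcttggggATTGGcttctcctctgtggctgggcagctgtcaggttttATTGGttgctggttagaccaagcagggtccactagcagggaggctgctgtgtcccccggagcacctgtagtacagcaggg
Cald1: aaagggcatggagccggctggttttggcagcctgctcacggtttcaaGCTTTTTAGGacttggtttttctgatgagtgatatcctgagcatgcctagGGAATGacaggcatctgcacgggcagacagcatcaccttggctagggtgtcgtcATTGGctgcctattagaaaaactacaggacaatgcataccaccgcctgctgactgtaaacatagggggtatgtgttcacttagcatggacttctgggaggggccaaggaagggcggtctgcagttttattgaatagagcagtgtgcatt
Tpm4: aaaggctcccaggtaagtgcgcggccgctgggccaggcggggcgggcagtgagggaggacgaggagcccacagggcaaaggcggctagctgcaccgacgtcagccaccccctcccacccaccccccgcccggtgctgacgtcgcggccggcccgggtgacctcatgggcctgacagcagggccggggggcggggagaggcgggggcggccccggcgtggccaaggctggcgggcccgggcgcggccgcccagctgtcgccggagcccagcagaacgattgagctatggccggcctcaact
RefSeq had 8 windows for 6 of the 7 members, and none of them held an exact CArG box, which 1.63% of all 32851 windows did. With at most 1 mismatch, the windows of Tpm1 and Lmod1, both windows of Tpm3 and 1 of the 2 windows of Cald1 had a match, as did 21.1% of all windows. In Lmod1 these were CTTTAAAAGG and CTAAATTTGG, which begin 189 and 164 bases upstream of the start site, and in Tpm1 CCATATATAG and CCAAAAAAGT, 221 and 80 bases upstream. CATTCC was present in 1 window each of Tpm1, Cald1 and Lmod1 and in 14.7% of all windows, in these 3 genes as GGAATG on the printed strand. CCAAT was present in the same 3 windows, as ATTGG on the printed strand, and in 37.4% of all windows. Tpm2 and Tpm4, which also rose, held none of these motifs in the window given. The Cald1 matches lie in the window printed, and its second window, not printed, held none of these motifs. Neither of the Tpm3 windows held CATTCC, and neither held the CCAAT motif. The TATA box motif TATAAA, searched as well and not capitalised, was found in the second window of Cald1 alone and in 13.6% of all windows. These matches describe letters only, and other start sites of Tpm1 are not covered.

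Beside the members, 4 of 5 tested actin genes rose and 1 fell. For this list and those that follow, the shares over all genes tested were 9.54% higher and 11.1% lower. The smooth muscle actins Actg2 and Acta2 had log2 fold changes of 1.96 and 1.69. The skeletal muscle actin Acta1 rose too (1.14), from a low level, at 2.24 ± 0.779 FPKM in siYBX1 and 0.447 ± 0.226 FPKM in siNC (SD, n = 3 each). The cytoplasmic actins moved in opposite directions. Actg1 had 1159 ± 121 FPKM in siYBX1 and 877 ± 50.7 FPKM in siNC (SD, n = 3 each, adjusted p = 0.0104, limma), and Actb 1163 ± 31.7 FPKM in siYBX1 and 1425 ± 81.9 FPKM in siNC (adjusted p = 0.0164, limma). The Actg1 call was lost without the filter on low values (0.40, adjusted p = 0.0708), without siYBX1 replicate 2 (0.36, adjusted p = 0.0514) and with quantile normalization (0.21, adjusted p = 0.177, limma), each of which left 3 actin genes higher. The Actb call was lost without siYBX1 replicate 1, without siYBX1 replicate 2, without siNC replicate 3, without the filter on low values and with the replicate numbers as a block. Actin paralogs are similar in sequence, and their values depend on how shared reads were assigned. The list's median log2 fold change was 1.14, the value of Acta1 itself. Acta1 met the filter of 1 FPKM only through its siYBX1 libraries.

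Among 15 tested genes of the other proteins that bind along actin filaments, 6 rose and 2 fell, and the median was 0.17 on the log2 scale. The transgelin gene Tagln rose most (2.53), followed by Nexn (1.18), the gene of nexilin, and Pdlim7 (0.76), a PDZ-LIM adaptor on stress fibres. The 2 genes that fell, named here after their values were seen, were Ablim1 (-0.37) and Synpo (-0.37), which encodes synaptopodin, an actin-binding protein. The call of Lima1 (0.20, adjusted p = 0.0358, limma) was lost without the filter and with TPM, quantile normalization or the replicate block. It was also lost without siYBX1 replicate 1 or 3 and without siNC replicate 2 or 3. Each of these left 5 genes higher. Without siNC replicate 1, with voom and with the length correction 7 were higher.

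Among 20 genes of filament assembly, capping and severing 10 rose and 2 fell, with a median of 0.185. The largest rises were those of the destrin and cofilin genes Dstn, Cfl1 and Cfl2, whose proteins sever and disassemble filaments and compete with several tropomyosins. Dstn had 398 ± 9.01 FPKM in siYBX1 and 218 ± 14.9 FPKM in siNC (SD, n = 3 each, log2 fold change 0.87, adjusted p = 2.32e-05, limma). Cfl1 and Cfl2 had log2 fold changes of 0.47 and 0.40. Capzb, a subunit of the barbed-end capping protein, rose (0.38, adjusted p = 0.000788, limma). The formin genes Diaph3 and Fhod1 were the 2 that fell (-0.37 and -0.24). The counts were 6 higher and 1 lower without siYBX1 replicate 1 and also with the replicate block, and 1 was lower without siNC replicate 3, the Fhod1 call being lost in each of these. With quantile normalization, without siYBX1 replicate 3 and without siNC replicate 3, 7 were higher. Without the filter and with TPM 8 were higher, and without siYBX1 replicate 2 there were 9.

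**Figure D4:**
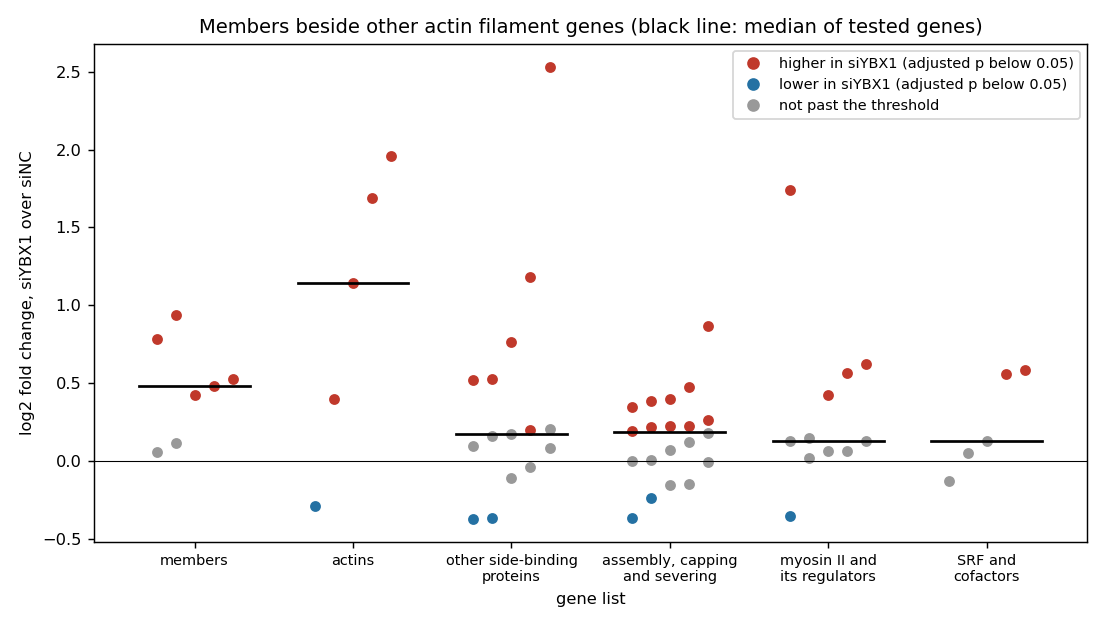
Log2 fold change of siYBX1 over siNC for the tested genes of each list, 1 point per gene, on the log2(FPKM + 1) scale. Red points passed as higher, blue points as lower, grey points did not pass, and black lines are medians (0.48 for the members, 1.14 for the actins and 0.17, 0.185, 0.13 and 0.13 for the lists to their right).

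Of 11 tested genes for myosin II chains and their regulators 4 rose and 1 fell, with a median of 0.13. Myl9 (1.74), a regulatory light chain, Mylk (0.62), the kinase that phosphorylates it, and Myl6 (0.56), an essential light chain, rose most, and Myl12a (0.42) was the other one that rose. Myh10 fell (-0.36). The heavy chain Myh9 had 254.5 ± 14.1 FPKM in siYBX1 and 233 ± 17.2 FPKM in siNC (SD, n = 3 each, adjusted p = 0.203, limma). Myh9 passed as higher without siNC replicate 1 (0.18, adjusted p = 0.0488) and with the length correction (0.19, adjusted p = 0.042, limma), with which 7 genes of this list were higher. Of 5 tested genes for serum response factor and cofactors, Srf (0.56) and Fhl1 (0.59) rose. The coactivator genes Mrtfa (0.05, adjusted p = 0.692) and Mrtfb (-0.13, adjusted p = 0.247, limma) did not pass. Myocd, the smooth muscle coactivator myocardin, averaged 0.00358 FPKM in siYBX1 and 0.0069 FPKM in siNC. Of 8 troponin genes, whose proteins work with tropomyosin in striated muscle, only Tnnc1 was abundant enough to test, at 11.7 ± 1.41 FPKM in siYBX1 and 13.6 ± 2.26 FPKM in siNC (SD, n = 3 each, adjusted p = 0.206, limma). Among the genes averaging below 1 FPKM the groups did not overlap for Tnni1, at 0.573 ± 0.0392 FPKM in siYBX1 and 1.03 ± 0.278 FPKM in siNC, nor for Tnnt3, at 0.855 ± 0.302 FPKM in siYBX1 and 0.418 ± 0.0464 FPKM in siNC (SD, n = 3 each). They overlapped for the other troponin genes. Tnni1 had 49 to 54 reads in siYBX1 and 72 to 122 in siNC, and Tnnt3 20 to 45 in siYBX1 and 15 to 19 in siNC. How many of all genes at such levels lack overlap was not counted. With voom on recovered reads, which tests lower genes, Tnni1 was called lower (-0.81, adjusted p = 0.0316, limma).

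Markers of other cell types were read beside the members. The 8 smooth muscle or myofibroblast markers summed to 1736 to 1801 FPKM in siYBX1 and 515 to 563 FPKM in siNC, nearly all of it from Acta2, and Acta2, Tagln and Actg2 rose among the 5 tested. Desmin and smoothelin genes Des and Smtn did not pass. Their part in the rises of the members was not tested. The markers of mature smooth muscle Myh11, Cnn1 and Myocd averaged under 0.2 FPKM in both groups. The 6 skeletal muscle markers listed summed to 1.43 to 2.97 FPKM in siYBX1 and 0.247 to 0.72 FPKM in siNC, mostly Acta1, and Myod1 was at 0 in siYBX1 and at 0.00517 FPKM on average in siNC. The 7 cardiac markers listed summed to under 0.2 FPKM in every library. Of 5 tested fibroblast or mesenchymal markers Col1a1 rose (0.36) and the other four did not pass. The single tested macrophage marker, Cd68, and the single tested endothelial marker, Egfl7, did not pass either.

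Gene length moves with the comparison across all genes. With the tested genes in 5 bins of equal size by length, bin 1 (the shortest) had a median of 0.078 on the log2 scale and bin 5 (the longest) one of -0.067, and 18.9% of bin 1 and 3.48% of bin 5 were called higher. None of the 7 members lies in bin 1. Tpm2 and Tpm4 lie in bin 2, where 12.1% of genes were called higher, Lmod1 and Tmod3 in bin 3 (7.74%), Tpm1 in bin 4 (5.46%) and Cald1 and Tpm3 in bin 5. A loess correction for the recovered length was chosen after seeing the data. With it the log2 fold changes were 0.96 for Lmod1, 0.83 for Tpm1, 0.51 for Tpm4, 0.49 for Cald1 and 0.48 for Tpm2. It gave 0.17 for Tpm3, which then passed, and 0.08 for Tmod3, which did not. The part of length in the values of the members was not tested.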

How the data were processed

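Poly(A) selection or rRNA removal, strandedness and the annotation used are not given in the sources used here. Libraries were made from 1.3 µg of total RNA, per the labels' protocols, and fastp, HISAT2, HTSeq and GRCm39 are named without versions, roles or order, per the submitters' processing notes. The authors deposited FPKM values, 1 column per library, named con and si with a number, which were matched to siNC and siYBX1 by those names.

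Whole reads were recovered from the FPKM steps. Totals came from genes whose RefSeq span (GRCm38.p6) gave the same total in a library, supported by 162 to 181 genes each. For each gene the smallest length that turned its 6 values into whole reads (tolerance 0.02 reads) was taken, and one was found for 16422 of 16423 genes (99.994%). On these reads voom called 1076 genes higher and 1390 lower. Lengths come out too small where read numbers share a divisor. Totals are those behind the FPKM values, not of reads sequenced, and 1 read on 2 kb is worth 0.0141 to 0.0157 FPKM.

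The two-sided test was limma-trend (limma 3.58.1, R 4.3.3) on log2(FPKM + 1), whose pseudocount understates changes of low genes, for genes averaging 1 FPKM or more, with adjustment over all of them. A "fold ratio" divides the group means in FPKM. Permutation tests were exact (scipy 1.17.1, Python 3.11.15). The members and all lists were chosen with earlier results of these data known. Genes named by rule were the members, Ybx1, up to 3 called genes of each list with the largest change (or the 2 most abundant tested), and the 3 nearest profiles to each called member. Other genes were named after their values were seen. Transcript windows of 50 bases used GENCODE vM21.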

Additional observations from a re-analysis of the deposited data

How the results depend on the processing

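The calls of 6 members, and the direction of every member except Tmod3, which stood at 0.00 without siNC replicate 1, were the same under 14 alternatives: pseudocounts of 0.1 and 0.01, no filter, TPM, quantile normalization, the replicate block, each library left out in turn, voom on recovered reads and a length correction, the last 2 chosen after seeing the data. Log2 fold changes ran from 0.69 to 0.83 for Tpm1, 0.41 to 0.55 for Tpm2, 0.47 to 0.54 for Tpm4, 0.37 to 0.49 for Cald1, 0.89 to 1.00 for Lmod1 and 0.00 to 0.10 for Tmod3, with highest adjusted p-values of 0.00527, 0.0175, 0.0064, 0.00712, 0.00313 and 0.999 (limma). Tpm3 ran from 0.06 to 0.17 and passed with the length correction (0.17). The cause was not tested. Over all genes, 577 were higher and 664 lower without the filter, which tests more genes, and 607 and 739 with the replicate block. Without 1 library the higher calls ran from 543 (without siYBX1 replicate 2) to 970 and the lower calls from 608 (without siYBX1 replicate 1) to 1056. They were 593 higher without siYBX1 replicate 1, and 762 and 751 lower without siYBX1 replicate 2 and without siNC replicate 3. Whether the replicate numbers pair the samples is not stated, and so few libraries cannot settle it. Same-numbered libraries deviated from their group means with correlations of -0.306, -0.131 and -0.246. For libraries with different numbers the correlations ran from -0.127 to 0.261. The block changed no member's call. In recovered reads the share differences were 4.92 percentage points for Tpm1 and -3.12 for Tpm3, against 2.88 and -1.36 in FPKM, since longer genes hold more reads. Without 1 library they ran from 2.39 to 3.53 for Tpm1, -0.805 to 0.0198 for Tpm2, reversed without siNC replicate 1, -1.44 to -1.25 for Tpm3 and -1.94 to -0.497 for Tpm4.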

Other observations

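The summed FPKM of the 6 actin genes was 3889, 4090 and 4084 in siYBX1 against 2934, 2726 and 2818 in siNC, a comparison chosen after the values of the members were seen. There were 24.9, 23.6 and 23.2 tropomyosin FPKM per 100 actin FPKM in siYBX1 and 22.5, 24.6 and 22.7 in siNC, and the groups overlapped (exact two-sided permutation p = 0.5, n = 3 each). The actins behind that sum were not in the same proportion, with Acta2 at 1671 ± 35.7 FPKM in siYBX1 and 518 ± 29.7 FPKM in siNC (SD, n = 3 each), and Actb lower in siYBX1.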
